A study of Mus musculus with 6 samples.

Results

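The ligands of the tumor necrosis factor (TNF) superfamily were followed in peripherally derived regulatory T (pTreg) cells with and without Blimp1. The 10 genes were taken by name, as all probes annotated to Tnf, Lta, Ltb, Fasl, Tnfsf10, Cd40lg, Cd70, Tnfsf8, Tnfsf11 and Tnfsf14. No threshold on a measured value was used, but the choice was made with earlier results of these data known. They make up 10 of the 19057 gene symbols on the array and 10 of the 9593 genes that could be tested, with 15 of the 45281 probes, and all 15 probes were above background on at least 2 arrays. RNA of sorted CD4+ Foxp3GFP+ cells was hybridized to 6 bead arrays (Illumina MouseWG 6v2). Of these, 3 hold cells sufficient in Blimp1 (Ctrl) and 3 hold cells that lack it (CKO). The Ctrl cells came from Prdm1+/+ CD4-Cre+ donors marked by Thy1.1 and the CKO cells from C57BL/6 Prdm1flox/flox CD4-Cre+ donors marked by Thy1.2, and both carried the Foxp3GFP reporter and the Cre. CD4-Cre acts in the whole T cell lineage, so Prdm1 was deleted before the cells became Foxp3+. Lymph nodes and spleen were pooled from donors 8 to 10 weeks old, naive CD4+ cells of both genotypes were mixed at equal numbers and given to C57BL/6 RAG1-/- mice, which have no T or B cells of their own, and pTreg cells were recovered 6 to 8 weeks later. Spleen, mesenteric lymph nodes and large intestine of the recipients were taken in the study, and which of these organs gave the cells on the arrays is not stated. The labels name the letters P+I for replicates 2 and 3 and no stimulus for replicate 1, and they give the cell type as iTreg in the description and as peripheral Treg cells in the source name. The study names 3 biological replicates for each group. Nothing in the labels ties a replicate to a separate set of animals, so the p-values measure the spread between these samples.

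The TNF superfamily ligands are trimeric proteins that are made at the cell surface and, for several members, released by cleavage. They bind receptors of the TNF receptor superfamily, which signal through TRAF adaptors to NF-kappaB or, where the receptor has a death domain, to caspases. Activated T cells are a main source of many of them, and they instruct B cells, dendritic cells, stromal cells and other T cells through direct contact. Blimp1, the product of Prdm1, is a transcriptional regulator of lymphocytes and other cells. It represses genes, and the study states that it can activate genes too.

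Lta, the gene of lymphotoxin alpha, and Tnfsf11, the gene of RANKL, gave higher intensities on all 3 CKO arrays than on any Ctrl array, 2.52-fold and 2.14-fold on average. Tnf was the one member with all CKO arrays below all Ctrl arrays, by 1.47-fold. In the other 7 genes the groups overlapped. In bulk RNA, fewer cells that express a gene and less of its RNA per cell cannot be told apart. No ligand passed an adjusted p of 0.05 in limma over all genes, where 0.271% of the 9593 genes did. Fitting the replicate number as a block, which pairs the Ctrl and CKO arrays of one number, 1 of the 10 passed, Tnfsf11 with an adjusted p of 0.040, against 1.91% of all genes in either direction and 0.751% that were higher in CKO. In the fit over all probes with the same block its adjusted p was 0.062, and 0 of the 15 ligand probes passed. The thresholds of the study's methods, a 1.5-fold difference with an unadjusted p below 0.05, were met by 2 of the 10, both higher in CKO, against 7.42% of all genes in either direction, 3.09% higher and 4.34% lower. With the block 3 of the 10 met them, all higher, against 12% of all genes. Over the 10 ligands the median log2 difference (CKO minus Ctrl) was 0.28, with 6 values above 0 and 4 below, and over all genes it was 0.02. Groups that did not overlap were seen for 3 of the 10 ligands and for 13% of all genes, with CKO above Ctrl for 5.95% and below for 7.08%.

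**Figure D1:**
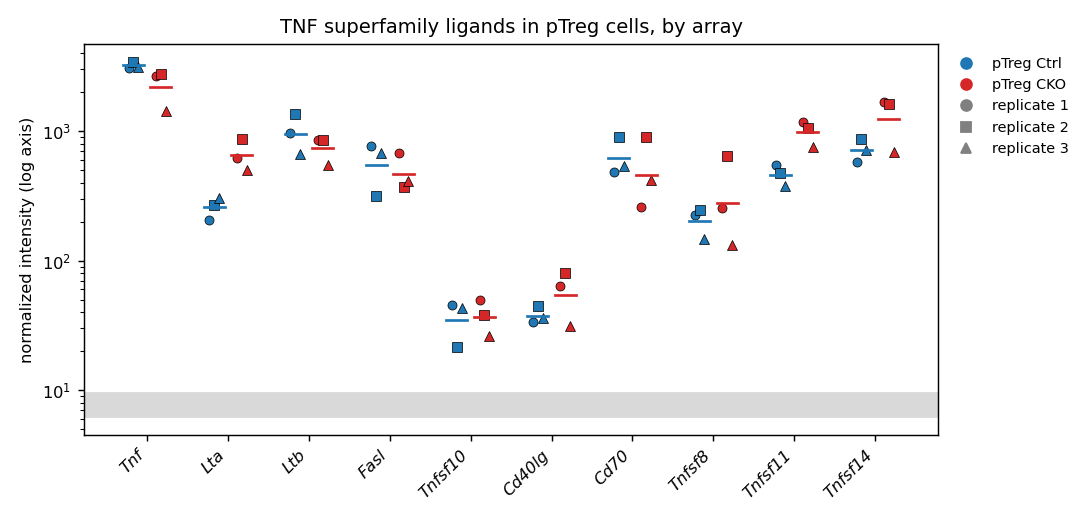
Normalized intensity (log axis) of the 10 ligand genes, 1 probe per gene, on each array, with Ctrl in blue, CKO in red, a symbol per replicate, a line at the mean of log2 values and a gray band over the background levels of the 6 arrays (6.18 to 9.55). For Lta and Tnfsf11 all red points lie above all blue points, for Tnf all lie below, and heights of different genes come from different probes and are not comparable.

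Between 32.3% and 38.3% of probes per array were above background. Prdm1 read 18.9, 50.9 and 49.2 on the Ctrl arrays and 561, 341 and 704 on the CKO arrays and rose by 3.82 on the log2 scale (limma, adjusted p = 0.028), a call that ended when any 1 array was left out, with adjusted p between 0.052 and 0.143. The position of that probe against the deleted exons is unknown here, and its level is therefore no check of the deletion. Foxp3, on which the cells were sorted, lay between 141 and 480 on the 6 arrays, with a log2 difference of 0.03 (limma adjusted p = 0.996).

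The genes of Ltb, Tnf and Lta lie side by side on mouse chromosome 17, in that order among protein-coding genes. Lymphotoxin alpha is secreted as a homotrimer, which binds the TNF receptors, or joins lymphotoxin beta at the cell surface in a heterotrimer that binds the lymphotoxin beta receptor and shapes lymphoid tissue. Lta had intensities of 208, 271 and 306 on the Ctrl arrays of replicates 1, 2 and 3, and CKO cells had 625, 873 and 503. The lowest CKO array was thus above the highest Ctrl array, and the lead of CKO was smallest in replicate 3. The difference was 1.33 on the log2 scale (SE 0.28, 95% interval 0.68 to 1.99, n = 3 per group) with an adjusted p of 0.159 in limma, 0.051 with the replicate block and 0.142 with the slide as a block. A second Lta probe gave 80.9, 144 and 181 in Ctrl and 295, 248 and 332 in CKO cells, again without overlap, with a log2 difference of 1.17 (SE 0.33, n = 3 per group). Both Lta probes met the thresholds of the methods, which 3.27% of all 17294 probes did in that direction.

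Tnf, the founding member of the family and an inflammatory cytokine, had intensities of 3087, 3443 and 3155 in Ctrl and of 2651, 2755 and 1438 in CKO cells. Replicates 1 and 2 of CKO lay just under the lowest Ctrl array and replicate 3 far under it. The log2 difference was -0.56 (SE 0.29, 95% interval -1.24 to 0.12, n = 3 per group, limma adjusted p = 0.731), and without CKO replicate 3 it was -0.25. The second Tnf probe did not keep the separation. It gave 3107, 2552 and 2746 in Ctrl and 2901, 2962 and 1225 in CKO cells, a log2 difference of -0.35 that became 0.07 without CKO replicate 3. CKO replicate 3 was thus low on both Tnf probes, while in the pairs of replicates 1 and 2 the log2 differences were -0.22 and -0.32 on the first probe and -0.10 and 0.22 on the second.

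Ltb had intensities of 977, 1350 and 668 in Ctrl and of 853, 862 and 544 in CKO cells. It was lower in CKO in 3 of 3 pairs, a pattern of one direction in all pairs that 37.6% of all genes showed, and the groups overlapped. Its log2 difference came to -0.38 (SE 0.33, n = 3 per group, limma adjusted p = 0.900), and leaving out 1 array moved it between -0.64 (without Ctrl replicate 3) and -0.13 (without Ctrl replicate 2). Taken within each array, the log2 ratio of Lta to Ltb was 1.71 higher in CKO than in Ctrl cells, and that of Lta to its other neighbor, Tnf, was 1.89 higher. In both ratios the groups did not overlap and CKO was higher in 3 of 3 pairs. An exact permutation test that keeps the pairs, two-sided over the 8 sign flips, gave p = 0.25 for each, the smallest it allows, and one over all 20 splits of the 6 arrays gave p = 0.1, again the smallest, so neither can reach 0.05. Each such ratio holds the Lta difference itself and shows unequal change within the array, not that either partner kept its level.

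Tnfsf11 encodes RANKL, which drives osteoclast formation through its receptor RANK and supports dendritic cells and lymph node development. Its 1 probe gave intensities of 544, 474 and 376 in Ctrl and of 1187, 1058 and 752 in CKO cells. The groups did not overlap, and the 3 pairs were close to one another, with log2 differences of 1.13, 1.16 and 1.001. The mean difference was 1.10 on the log2 scale (SE 0.27, 95% interval 0.48 to 1.71, n = 3 per group). Limma's adjusted p was 0.216 without a block, 0.142 with the slide as a block and 0.040 with the replicate block, where the SE was 0.18, and adjusted over all probes it was 0.062 with the replicate block. Over all 19 alternative settings the log2 difference stayed between 0.95 and 1.29 for Tnfsf11 and between 1.12 and 1.63 for Lta.

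Tnfsf14 encodes LIGHT, which binds the herpesvirus entry mediator and the lymphotoxin beta receptor and costimulates T cells. Its brightest probe gave 582, 871 and 713 in Ctrl and 1692, 1629 and 696 in CKO cells. Replicates 1 and 2 of CKO were above every Ctrl array, while replicate 3 lay among the Ctrl arrays. On this probe the log2 difference was 0.80 (SE 0.38, 95% interval -0.07 to 1.68, n = 3 per group, limma adjusted p = 0.668, with the replicate block 0.265). The fit as designed left it outside the thresholds of the methods, with an unadjusted p of 0.067. They were met with the block, without the filter on dim probes, with the intensity trend in limma (0.80 in each), with an offset of 16 in place of the background floor (0.79), with the mean of its probes (1.07) and without CKO replicate 3 (1.22). In the settings without the filter, with the trend, with the offset and with the mean of probes, 3 of the 10 ligands met them, against 5.42% to 7.36% of all genes. On slide 2 alone the difference was 0.44.

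The other Tnfsf14 probes showed larger differences. The second gave 428, 469 and 335 in Ctrl and 1333, 1061 and 473 in CKO cells, so that all CKO arrays were above all Ctrl arrays, by 1.11 on the log2 scale (SE 0.40, n = 3 per group). The third gave 167, 69.5 and 58.2 in Ctrl and 354, 264 and 112 in CKO cells, a difference of 1.32 (SE 0.53, n = 3 per group), with CKO higher in 3 of 3 pairs and overlap between CKO replicate 3 and Ctrl replicate 1. Both met the thresholds of the methods, and their adjusted p-values in the limma fit over all probes were 0.512 and 0.587. On all 3 probes CKO replicate 3 was the lowest CKO array. In total 5 of the 15 ligand probes met these thresholds, all higher in CKO, namely both of Lta, the 1 of Tnfsf11 and probes 2 and 3 of Tnfsf14, while 0 of 15 passed an adjusted p of 0.05 in limma, against 0.156% of all probes. The probes of 1 gene share their RNA, so they count as repeat readings of it.

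**Figure D2:**
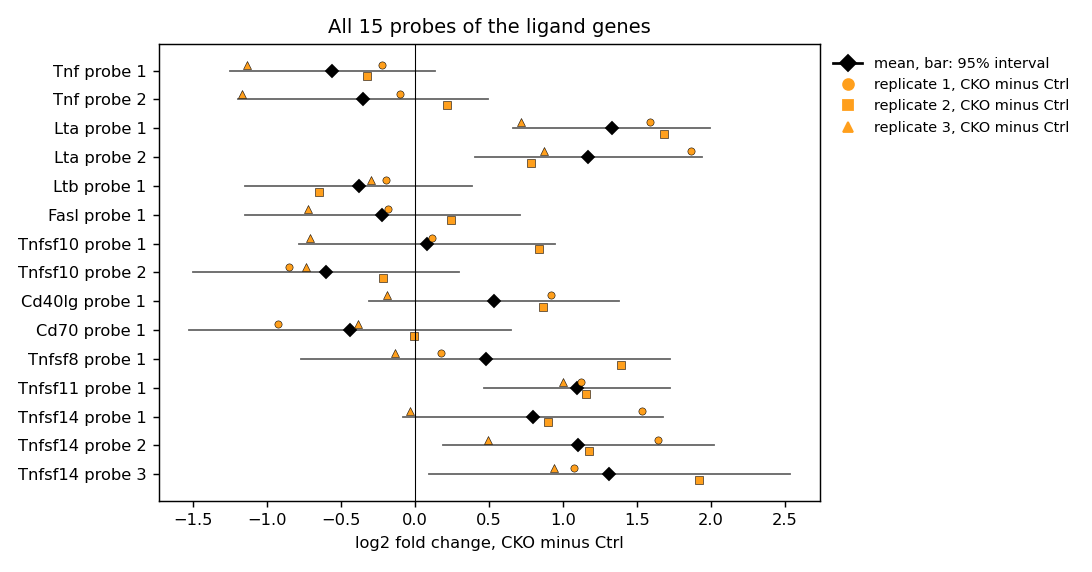
Log2 difference (CKO minus Ctrl) of each of the 15 ligand probes, numbered by brightness within a gene. The mean and its 95% interval from limma without a block are in black, and the 3 replicate pairs are in orange. All pairs of both Lta probes, of Tnfsf11 and of Tnfsf14 probes 2 and 3 lie above 0, and the replicate 3 pair (triangles) is the lowest of the 3 for 8 of the 10 genes.

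Promoter sequence is shown for 3 ligands, Tnfsf11 as the member that passed with the block in the fit over genes, Tnfsf14 as the one read by 3 probes, and Tnf as the ligand lower on all CKO arrays. Each line holds the 250 bases before the RefSeq start site on assembly GRCm38.p6, 5′ to 3′ on the strand of the gene, which is the minus strand for all 3. Capitals mark matches to the letters AGNGAAAG, a core found in Blimp1 binding sites, TGANTCA, the AP-1 site, and TATAAA, the TATA box, on either strand.
Tnfsf11, chr14:78308044-78308293: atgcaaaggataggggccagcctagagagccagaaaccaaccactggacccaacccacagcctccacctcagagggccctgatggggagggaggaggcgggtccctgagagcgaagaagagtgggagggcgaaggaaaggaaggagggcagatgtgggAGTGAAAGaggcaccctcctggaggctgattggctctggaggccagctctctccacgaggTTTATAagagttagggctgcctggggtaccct
Tnfsf14, chr17:57194182-57194431: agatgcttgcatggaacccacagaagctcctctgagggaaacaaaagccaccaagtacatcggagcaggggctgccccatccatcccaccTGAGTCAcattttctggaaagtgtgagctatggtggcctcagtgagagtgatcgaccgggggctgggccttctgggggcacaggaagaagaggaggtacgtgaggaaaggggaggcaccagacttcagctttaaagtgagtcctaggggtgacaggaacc
Tnf, chr17:35202008-35202257: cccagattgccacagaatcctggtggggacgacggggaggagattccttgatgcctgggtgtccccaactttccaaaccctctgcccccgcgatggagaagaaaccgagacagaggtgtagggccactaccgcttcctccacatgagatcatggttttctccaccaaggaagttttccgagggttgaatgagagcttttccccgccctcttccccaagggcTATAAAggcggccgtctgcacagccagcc
The Tnfsf11 window holds AGTGAAAG, at 92 to 85 bases before the start site, and a TATAAA match on the opposite strand, where it reads TTTATA. AGNGAAAG was found in 1 of the 8 ligand windows on hand and in 7.3% of all 32851 promoter windows of that length, a share that 1 of 8 does not set apart. TGANTCA was found in the Tnfsf14 window alone, against 6.75% of all windows, and TATAAA in 3 of the 8, against 12.4%. A search for GGAAA, the core of NFAT sites, matched all 8 windows and 55.6% of all windows, and the consensus of NF-kappaB sites matched Ltb alone and 7.25% of all windows. GGAAA can lie within the NF-kappaB consensus. Windows of Cd40lg and Cd70 were not used here, and those of Lta and Tnfsf8 lie mostly inside the annotated gene and are not shown. A match of letters is a description and says nothing about binding in these cells.

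Cd70 lies next to Tnfsf14 on chromosome 17, with Tnfsf9 on its other side. It encodes the ligand of CD27, a costimulatory receptor of T cells. Cd70 had intensities of 488, 910 and 542 in Ctrl and of 258, 907 and 416 in CKO cells. Replicate 2 was the brightest in both groups and gave nearly equal values there, and the groups overlapped. For Cd70 the log2 difference was -0.44 (SE 0.47, 95% interval -1.52 to 0.65, n = 3 per group, limma adjusted p = 0.926). Without CKO replicate 2 it was -0.92 and met the thresholds of the methods, and without CKO replicate 1 it was -0.02. Within each array the log2 ratio of Tnfsf14 to Cd70 was 1.24 higher in CKO than in Ctrl cells, without overlap (exact permutation test within pairs, two-sided, p = 0.25, and over all splits p = 0.1, each the smallest it allows). The 3 ratios of neighbors were the only ones computed, and Benjamini-Hochberg adjustment over them leaves each p as it is.

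Cd40lg, whose product activates B cells and dendritic cells through CD40, was dim. Its intensities were 33.4, 44.2 and 35.8 in Ctrl and 63.3, 80.8 and 31.5 in CKO cells. The CKO arrays of replicates 1 and 2 were above every Ctrl array and that of replicate 3 below every one. Between the group means the log2 difference was 0.53 (SE 0.36, 95% interval -0.30 to 1.37, n = 3 per group, limma adjusted p = 0.837), and without CKO replicate 3 it was 0.92 and met the thresholds of the methods.

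Tnfsf8, the gene of CD30 ligand, gave 226, 245 and 146 in Ctrl and 256, 646 and 133 in CKO cells. A single array, CKO replicate 2, stood above the rest. Its log2 difference of 0.48 (SE 0.54, 95% interval -0.77 to 1.73, n = 3 per group, limma adjusted p = 0.931) became -0.12 without that array.

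For the death ligands Fasl and Tnfsf10 the groups overlapped on every probe, and the sign for Tnfsf10 depended on the probe. Fasl, whose product kills cells that bear Fas and is used by T cells against one another, had intensities of 769, 313 and 682 in Ctrl and of 679, 371 and 413 in CKO cells. The groups overlapped, and replicate 2 was the lowest in both. The log2 difference was -0.22 (SE 0.40, 95% interval -1.14 to 0.71, n = 3 per group, limma adjusted p = 0.971). Tnfsf10, which encodes TRAIL, was dim, with 45.7, 21.3 and 42.9 in Ctrl and 49.7, 38.2 and 26.3 in CKO cells on its brighter probe. Its log2 difference there was 0.08 (SE 0.37, n = 3 per group, limma adjusted p = 0.986). The second Tnfsf10 probe was above background on 3 Ctrl arrays and 1 CKO array. It was lower in CKO in 3 of 3 pairs. With the replicate block, not without it, this probe met the thresholds of the methods, as 12% of all genes did. The CKO arrays of replicates 1 and 3 stood at their background level, so their values are bounds, and the log2 difference depended on that level, -0.60 with the floor used here and -0.19 with a floor at the 99th percentile.

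CKO replicate 3 was the lowest CKO array for 8 of the 10 ligands and the highest for 0, whereas it was the lowest for 30.3% of all genes and the highest for 35.6%. The exceptions were Fasl, lowest in CKO replicate 2, and Cd70, lowest in CKO replicate 1. Likewise the difference between CKO and Ctrl was lowest in the replicate 3 pair for 8 of the 10 ligands and for 35.5% of all genes. In Ctrl cells the lowest array was replicate 1 for 5 ligands, replicate 3 for 3 and replicate 2 for 2. Without CKO replicate 3, 4 of the 10 ligands met the thresholds of the methods in place of 2, namely Lta, Tnfsf11, Tnfsf14 and Cd40lg, all higher in CKO. Of the 9326 genes then tested 7.61% met them in either direction and 3.42% higher in CKO. Leaving out the lowest CKO array of a ligand raises its CKO mean by construction, so this count is only a description. Over all arrays left out singly the count lay between 2 and 4.

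Early response genes of stimulated T cells were also low on that array by their median. Of 30 such genes 29 were tested, among them Fos, Egr1, Cd69, Ifng and Il2. Their median deviation from the mean over the 6 arrays was 0.23, 0.27 and -0.12 on the log2 scale for Ctrl arrays 1 to 3 and 0.03, 0.20 and -0.47 for the CKO arrays. CKO replicate 3 was thus the lowest of all arrays by the median. Their summed intensity lay between 85423 and 129669 in Ctrl and between 88097 and 104761 in CKO cells. By that sum Ctrl replicate 2 was the lowest array (85423), below CKO replicate 3 (88097). Ifng too was lowest in Ctrl replicate 2, at 4885 against 18597 in CKO replicate 3. The thresholds of the methods were met by Xcl1, higher in CKO, and by Ccl3 and Ccl4, lower, against 7.42% of all genes. With the replicate block Xcl1 rose and Ccl3 fell (limma adjusted p = 0.027 and 0.049), against 1.91% of all genes. Il2 had 9308, 9867 and 13107 in Ctrl and 8597, 11086 and 6979.9 in CKO cells. Several ligands are themselves induced by stimulation in T cells, and how far stimulation entered their values was not tested. Stimulus and slide cannot be told apart, since replicate 1, whose labels name no stimulus, is alone on its slide. On slide 2, with replicates 2 and 3, the log2 difference was 1.21 for Lta and 1.08 for Tnfsf11, and in the replicate 1 pair it was 1.59 and 1.13. Other ligands differed more between the slides, with 0.44 on slide 2 and 1.54 in the replicate 1 pair for Tnfsf14. For Tnf these values were -0.74 and -0.22. Cd40lg had 0.92, 0.87 and -0.19 in the pairs of replicates 1, 2 and 3. A genotype by slide term passed an adjusted p of 0.05 in limma for 0 of the 10 ligands and 0 of the 9593 genes, of which 2.43% had an unadjusted p under 0.05.

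Markers of other cell types were present on all arrays. Of 8 myeloid genes 5 were tested, and their summed intensity was 22523, 2430 and 31474 in Ctrl and 12302, 1644 and 22042 in CKO cells, carried mostly by S100a8 and S100a9. It was lowest in replicate 2 of both groups and lower in CKO in each pair, as were S100a8 and S100a9. Cd14 (21.8 to 1363) and Lyz2 (29.1 to 667), above background on all 6 arrays, were lower in CKO in the pairs of replicates 1 and 3 but higher in that of replicate 2, by 0.98 and 1.05 on the log2 scale. Csf1r was near background, and Itgam and Adgre1 were not above background on 2 arrays. In the replicate 2 pair, where that sum was lowest, the log2 difference was 1.69 for Lta, 1.16 for Tnfsf11 and 0.90 for Tnfsf14. For the other ligands it was 1.40 for Tnfsf8, 0.87 for Cd40lg, 0.84 for Tnfsf10 and 0.25 for Fasl. Ltb, Tnf and Cd70 had -0.65, -0.32 and -0.0051 in that pair. The T cell genes Cd3d, Cd3e, Cd3g, Cd28 and Cd4 were above background on all arrays, Cd3e at a mean of 3820 (SD 906, n = 3) for Ctrl and 2786 (SD 389, n = 3) for CKO. Cd4, on whose product the cells were sorted, was dim, at 28.7 to 62.8 in Ctrl and 17.2 to 34.4 in CKO cells. Its log2 difference was -0.55 (SE 0.39, limma adjusted p = 0.857). The 5 T cell genes tested summed to 9906 to 13274 in Ctrl and to 7726 to 9469 in CKO cells. The 6 Treg genes on the list (Foxp3, Il2ra, Ctla4, Ikzf2, Tnfrsf18, Tnfrsf4) were above background on all arrays and summed to 26453 to 33904 in Ctrl and to 15986 to 19527 in CKO cells, without overlap. Tnfrsf4 gave the largest part of that sum, with means of 17801.5 in Ctrl and 11884.5 in CKO cells. For Foxp3 and Il2ra the groups overlapped. Of the 6 genes Ctla4, Ikzf2 and Tnfrsf18 met the thresholds of the methods, lower in CKO, against 4.34% of all genes. Ctla4 fell with the replicate block (log2 difference -1.12, limma adjusted p = 0.043), against 1.16% of all genes. Of the lists of other cells, the B cell genes Cd79b and Ms4a1 stayed near background, with sums of 14.5 to 21.5 in Ctrl and 17.8 to 19.1 in CKO cells. Sums of the 3 cytotoxic and NK cell genes tested (Cd8b1, Klrd1, Eomes) were 706 to 1081 and 563 to 960, with Cd8a, Klrb1c and Ncr1 not above background. The erythroid sums (Hba-a1, Alas2) were 539 to 1899 and 566 to 1638, and the sums of Krt8, Krt18 and Pecam1 were 37.5 to 98.9 and 80.3 to 119.9. Krt8 was above background on 1 Ctrl and 1 CKO array, Krt18 on 1 and 2, and Pecam1 on all. Pecam1 alone met the thresholds of the methods, higher in CKO, against 3.09% of all genes. It rose with the replicate block (log2 difference 1.21, limma adjusted p = 0.041), and which cells gave its RNA was not tested. The part of such cells in the ligand values was not tested.

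**Figure D3:**
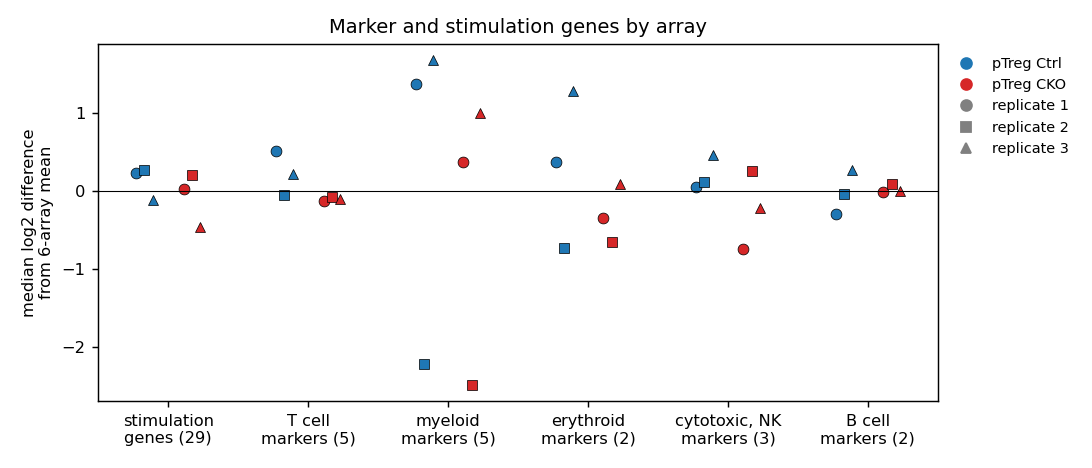
Median log2 difference from the mean over 6 arrays for the stimulation genes and for lists of cell type markers, with the number of genes tested in brackets, on each Ctrl (blue) and CKO (red) array. The stimulation genes were lowest in CKO replicate 3 (-0.47), and the myeloid genes were lowest in replicate 2 of both groups.

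Of the 8 further ligands of the family on the list, Tnfsf4, Tnfsf12, Tnfsf15, Tnfsf18 and Eda were not above background on 2 arrays, Tnfsf13 had no named probe here, and the other two did not pass the test. Tnfsf9, the gene of 4-1BB ligand and the neighbor of Cd70, had intensities of 114, 113 and 124 in Ctrl and of 171, 179.9 and 84.3 in CKO cells. CKO replicates 1 and 2 were above every Ctrl array and replicate 3 below, the pattern seen for Cd40lg. The log2 difference was 0.23 (SE 0.32, n = 3 per group, limma adjusted p = 0.951). Tnfsf13b, which encodes the B cell survival factor BAFF, lay at 8.67 to 21.1 in Ctrl and 7.52 to 14.2 in CKO cells, near background.

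The receptors of these ligands were tested where a probe was above background, which left 7 of 13. None passed an adjusted p of 0.05 in limma without the block. With it 1 of 7 passed and fell, Tnfrsf1b, against 1.91% of all genes in either direction and 1.16% that were lower. The same gene alone met the thresholds of the methods, against 7.42% of all genes in either direction and 4.34% lower. The median log2 difference over the 7 was -0.28. Tnfrsf1b encodes TNF receptor 2, the TNF receptor that lymphocytes use and that Treg cells carry in large amounts. It had intensities of 628, 667 and 487 in Ctrl and of 281, 289 and 232 in CKO cells, every CKO array being below every Ctrl array. The log2 difference was -1.14 (SE 0.23, 95% interval -1.68 to -0.61, n = 3 per group), with an adjusted p of 0.140 in limma without and 0.035 with the replicate block. In these cells, then, the difference for the receptor was of the opposite sign to that for its soluble ligand lymphotoxin alpha and of the same sign as that for Tnf.

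Tnfrsf1a, the TNF receptor with a death domain, was near background at 13.4 to 23.2 in Ctrl and 9.16 to 14.5 in CKO cells. Cd27, the receptor of Cd70, had 6979.9, 5438 and 3488 in Ctrl and 3564, 3056 and 4477 in CKO cells, with overlap through replicate 3 and a log2 difference of -0.48 (SE 0.31, limma adjusted p = 0.822). For Fas, the receptor of Fas ligand, intensities of 176 to 353 in Ctrl and 163 to 250.03 in CKO cells overlapped, and so did those of Cd40 (23.1 to 41.5 and 21.4 to 37.9), of Tnfrsf10b, the TRAIL death receptor (87.5 to 148 and 91.9 to 131), and of the decoy receptor gene Tnfrsf22 (96.6 to 151 and 132 to 269). Their log2 differences were -0.28, -0.19, 0.02 and 0.57. Ltbr, Tnfrsf14, Tnfrsf8, Tnfrsf11a, Tnfrsf11b and Tnfrsf23 were not above background on 2 arrays, so the receptors of Tnfsf8, Tnfsf11 and Tnfsf14 and the lymphotoxin beta receptor had no measured level in these cells.

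Of the 26 genes that carry TNF receptor signals or process the ligands, 22 were tested. The median log2 difference was -0.22, with 16 values below 0 and 6 above. Over all 9593 genes, 4567 values were below 0 and 5026 above. Adam17, the protease that releases TNF from the membrane, had means of 197 (SD 45.4, n = 3) for Ctrl and 195 (SD 4.84, n = 3) for CKO, a log2 difference of 0.02 with a 95% interval of -0.56 to 0.59. In limma 0 of 22 passed an adjusted p of 0.05 without the block, and 3 had an unadjusted p under 0.05. These were Zfp36, Traf5 and Casp8, with log2 differences of -1.35, 0.57 and -0.53, and of all 9593 genes 773 had such a p. With the block 1 of the 22 passed and fell, Zfp36, against 1.16% of all genes that were lower. Without the block it alone met the thresholds of the methods, against 4.34% of all genes that were lower. Zfp36 encodes tristetraprolin, an RNA-binding protein that promotes decay of mRNAs with AU-rich elements, the mRNA of Tnf among them. Its intensities were 2579.8, 1795 and 1774 for Ctrl and 921, 707 and 767 for CKO, without overlap. The log2 difference was -1.35 (SE 0.25, 95% interval -1.92 to -0.77, n = 3 per group, limma adjusted p = 0.109, with the replicate block 0.024).

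With the block 4 of the 22 genes met the thresholds of the methods, all lower in CKO. Of all 9593 genes 12% met them in either direction, and 698 genes met them lower in CKO. Besides Zfp36 the 4 signalling genes were Nfkbia, the inhibitor of NF-kappaB, Cflar, the inhibitor of caspase-8 activation, and Rhbdf2, which carries Adam17 to the cell surface. Nfkbia had intensities of 3834, 3189.6 and 1949 in Ctrl and of 2055, 2432 and 1183 in CKO cells, with overlap between groups and CKO lower in each pair. Its log2 difference was -0.67 (SE 0.36, limma adjusted p = 0.740), and that of Cflar was -0.65 (SE 0.29, limma adjusted p = 0.628). That of Rhbdf2, near background in CKO cells, was -0.71 (SE 0.35, limma adjusted p = 0.700). All CKO arrays of Rhbdf2 lay below all Ctrl arrays, as for 7.08% of all genes. Of the NF-kappaB subunit genes tested, none passed, with log2 differences of 0.08 for Rela, -0.01 for Nfkb2, -0.24 for Rel and -0.45 for Relb, the last lower in CKO in 3 of 3 pairs.

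**Figure D4:**
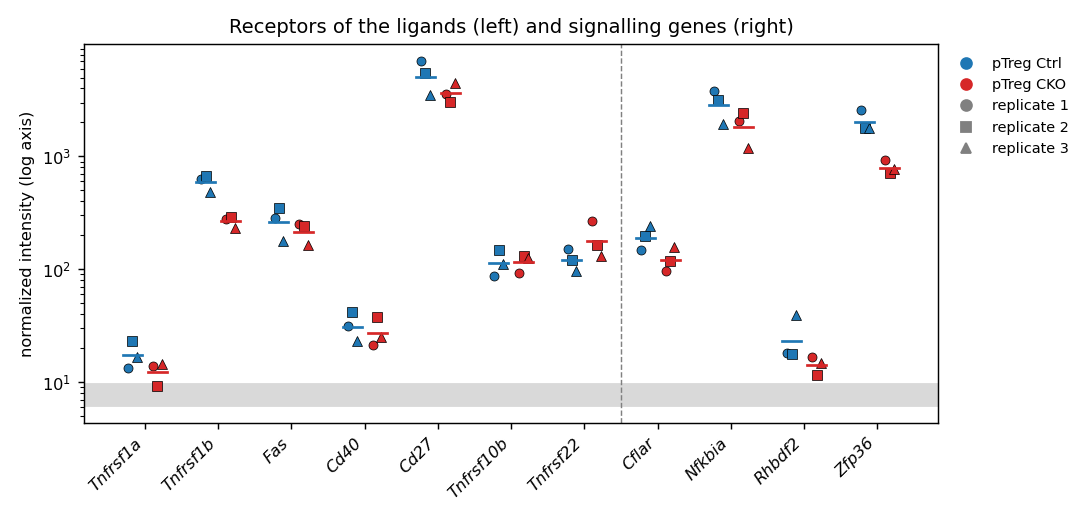
Normalized intensity (log axis) of the 7 receptor genes and of 4 signalling genes on each array, drawn with the same symbols, lines and background band as for the ligands. Tnfrsf1b, Zfp36 and, near background, Rhbdf2 have all CKO arrays below all Ctrl arrays, while the groups of Cd27, Fas, Cd40 and Tnfrsf10b overlap.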

How the data were processed

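RNA of sorted pTreg cells was measured on 6 Illumina MouseWG 6v2 arrays, 3 Ctrl and 3 CKO, grouped by the genotype in the labels. The Teff arrays are not analysed here. The authors exported intensity values from Genome Studio and quantile normalized them. The deposited intensity values are linear, 35.4% to 36.0% per array lie below 0, so background had been subtracted, and the sources used here do not say in which order. Within a slide at least 97.1% of sorted values of the pairs compared are equal (within 0.02 plus 0.1%), and 4.19% between slides, so the 2 slides had been normalized separately. Detection p-values were not used.

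The columns of both slides were brought to one set of quantiles, raised to the background level of the array (95% of its 1504 probes for olfactory or vomeronasal receptors lay below it) and taken to log2. Probes above background on at least 2 arrays were kept, 17294 of 45281, and 14811 of these had 1 gene symbol. On the array 34885 probes have 1 symbol, 18 several and 10378 none, and 34807 symbols were checked by gene identifier against RefSeq (GRCm38.p6). The brightest kept probe stood for a gene (3545 genes had more than 1), and probes of 1 gene were also fitted singly. The 2 groups were set against each other in limma 3.58.1 (R 4.3.3; lmFit, eBayes, no block), with Benjamini-Hochberg adjustment over 9593 genes or 17294 probes. Rose and fell are kept for an adjusted p under 0.05. SEs and 95% intervals come from the fit without a block unless a block is named, so they also hold the spread between replicate pairs. With the replicate block the SE was smaller for each ligand gene, for Cd70 0.23 in place of 0.47. The fit was also run on simulated data with independent arrays. Those data held no replicate pairs and no slide effect, so they do not test the fit for paired arrays. Arrays carry no read depth, and 3 per group limit the precision.

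Arrays of one number pair, since the labels of replicates 2 and 3 give Ctrl and CKO a shared day, those of replicate 1 share a slide, and their deviations from the group means correlated at 0.51, 0.49 and 0.56 over genes. The block is therefore given where it changes a call. The members, the lists and the tests were chosen with earlier results of these data known, and the alternatives that leave out both arrays of replicate 2 or 3 were added after the data had been seen. Named were all ligands with every probe, Prdm1, Foxp3, Il2, receptors with a kept probe, signalling genes and further ligands past a threshold or among the 3 largest changes, and markers above background. Adam17, Rela, Nfkb2, Rel, Relb, Traf5, Casp8, the Treg genes, chemokines of the stimulation list, the receptors and ligands not above background, and examples of T cell and stimulation genes are not covered by it and were picked with their values in view. Promoter windows come from RefSeq and cover 8 of the 10 ligands.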

Additional observations from a re-analysis of the deposited data

How the results depend on the processing

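The number of arrays, 3 per group, limits the precision. With the floor at the 99th percentile the second Tnfsf10 probe, at background on 2 CKO arrays, moved from -0.60 to -0.19, while Cd40lg stayed at 0.53 and the brighter Tnfsf10 probe at 0.08. Lta, Ltb, Tnf, Cd40lg, Cd70, Tnfsf11 and Tnfsf14 kept the sign of their difference in all 19 settings at the gene level.

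With the replicate block, counts at an adjusted p of 0.05 became 183 for all genes (26 without it), 1 for the ligands (Tnfsf11, with 0 of 15 ligand probes in the fit over probes), 1 for the receptors (Tnfrsf1b) and 1 for the signalling genes (Zfp36), 0 in each list without it. At the thresholds of the methods the block gave 1154 genes in place of 712 and 4 signalling genes in place of 1. It gave 7 ligand probes in place of 5, 6 of them higher in CKO and the second Tnfsf10 probe lower. Of the stimulation genes 6 met them lower in CKO in place of 2, with 1 higher in both fits. Lower in CKO were also 4 Treg genes in place of 3, and 2 myeloid genes and 1 T cell gene in place of 0. Among the other named genes the block added Ctla4, Pecam1, Xcl1 and Ccl3 at an adjusted p of 0.05 and no more. With no filter on dim probes the adjusted count was 150 for all genes, 1 for the ligands (Lta, adjusted p = 0.025), 4 for the ligand probes, 1 for the receptors and 1 for the signalling genes, of which 4 then met the thresholds of the methods. An offset of 16 gave 43 genes and 1 signalling gene at an adjusted p of 0.05 and 2 signalling genes at the thresholds of the methods. The slide as a block gave 16 genes at an adjusted p of 0.05, and the intensity trend gave 1 signalling gene. At the thresholds of the methods both these settings and the floor at the 99th percentile gave 2 signalling genes, and the mean of kept probes gave 3 signalling genes and 2 receptors, Cd27 being the second. Slide 2 alone gave 0 genes by limma's adjusted p and 3 signalling genes at the thresholds of the methods, and leaving out both arrays of replicate 2 gave 1 gene. Without both arrays of replicate 3, 0 genes passed an adjusted p, and 4 ligands (with 6.55% of all genes), 2 receptors and 2 signalling genes met the thresholds of the methods. The cause of these shifts was not tested.

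Leaving out 1 array, counts lay between 1 and 10 for all genes at an adjusted p of 0.05, and at the thresholds of the methods between 705 and 745 for all genes, 2 and 4 for the ligands (4 without CKO replicate 3), 3 and 7 for their probes (3 without CKO replicate 1 or Ctrl replicate 3), 1 and 2 for the receptors (2 without Ctrl replicate 3) and 1 and 5 for the signalling genes (5 without Ctrl replicate 1, 3 without CKO replicate 3, 2 without CKO replicate 1 or Ctrl replicate 3). Leaving out 1 array or both arrays of 1 replicate, log2 differences whose sign turned ranged from -0.62 to 0.031 for Fasl, from -0.29 to 0.47 for Tnfsf10, from -0.12 to 1.02 for Tnfsf8, from -0.63 to 0.070 for the second Tnf probe, from -0.16 to 0.22 for Tnfrsf10b, from -0.43 to 0.015 for Cd40, from -0.37 to 0.53 for Foxp3 and from -0.52 to 0.028 for Il2. Signs also turned with the mean of kept probes, to -0.26 for Tnfsf10, -0.033 for Tnfrsf10b and -0.38 for Foxp3.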
